A study of Mus musculus with 8 samples.

Results

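The Ms4a gene cluster on mouse chromosome 19 was examined in whole-genome bisulfite data from B and T lymphocytes. Ms4a genes encode small proteins that cross the membrane 4 times, and the family grew by local duplication. Ms4a1 encodes CD20, a surface protein of B cells. Several neighbours belong to other blood cells, with Ms4a2 encoding the beta chain of the high-affinity IgE receptor of mast cells and basophils and Ms4a4b encoding a T cell surface protein. DNA methylation sits mainly on the cytosine of CpG dinucleotides, and active gene starts in blood cells usually lack it.

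The 9 genes were taken by name out of 21755 protein-coding genes of GENCODE M21 on chromosomes 1 to 19 and X and not by a measured value, though the list was drawn up with earlier results of these data known. Each was taken with its gene body and 10 kb on either side. The regions held 1618 CpGs of the GRCm38 genome. Of these, 1336 (82.6%) had 5 or more reads in all 4 files and were used. Their mean depth was 12.0 to 15.4 reads per CpG and file.

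The cells came from spleens of C57BL/6J mice, an inbred strain, aged 6 to 8 weeks, with no treatment. The T cells were naive CD4+ cells sorted as CD62L high, CD44 low and CD25-, and the B cells were resting CD43- cells. Per the study, each sample pooled cells of several animals. The 8 samples formed 4 groups of 2 (B cells and T cells of each sex), and each group had 1 file, so that no spread between pools of the same kind was available. The cell types could thus be compared once per sex, and each p-value tests the cell type or the sex term of a model with both, against a dispersion estimated from the residual of the 4 files and shared across features. The bisulfite assay reads 5-methylcytosine and 5-hydroxymethylcytosine alike.

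Autosomal depth was 14.6 to 17.7 reads per CpG over the 4 files. The labelled cell types were checked at promoters, here the annotated gene start with 1 kb on either side. A promoter, window or region was called when its B and T cell levels differed at an adjusted p under 0.05 and by 20 percentage points or more. Of 8 B cell marker promoters 7 were called lower in B cells, and of 10 T cell marker promoters 8 were called higher in B cells. Among 21082 promoters tested, 0.915% were called, 0.432% lower and 0.484% higher in B cells. The 2 CD8 T cell promoters were called higher in B cells, although cells bearing CD8a were depleted before the sort. None of the promoters of monocyte and macrophage (6), granulocyte (5), mast cell and basophil (4) or red cell (3) markers was called. Of these only the macrophage marker Lyz2 passed the test (-19.3 points, adjusted p = 0.0436), but not the size of 20 points.

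**Figure D1:**
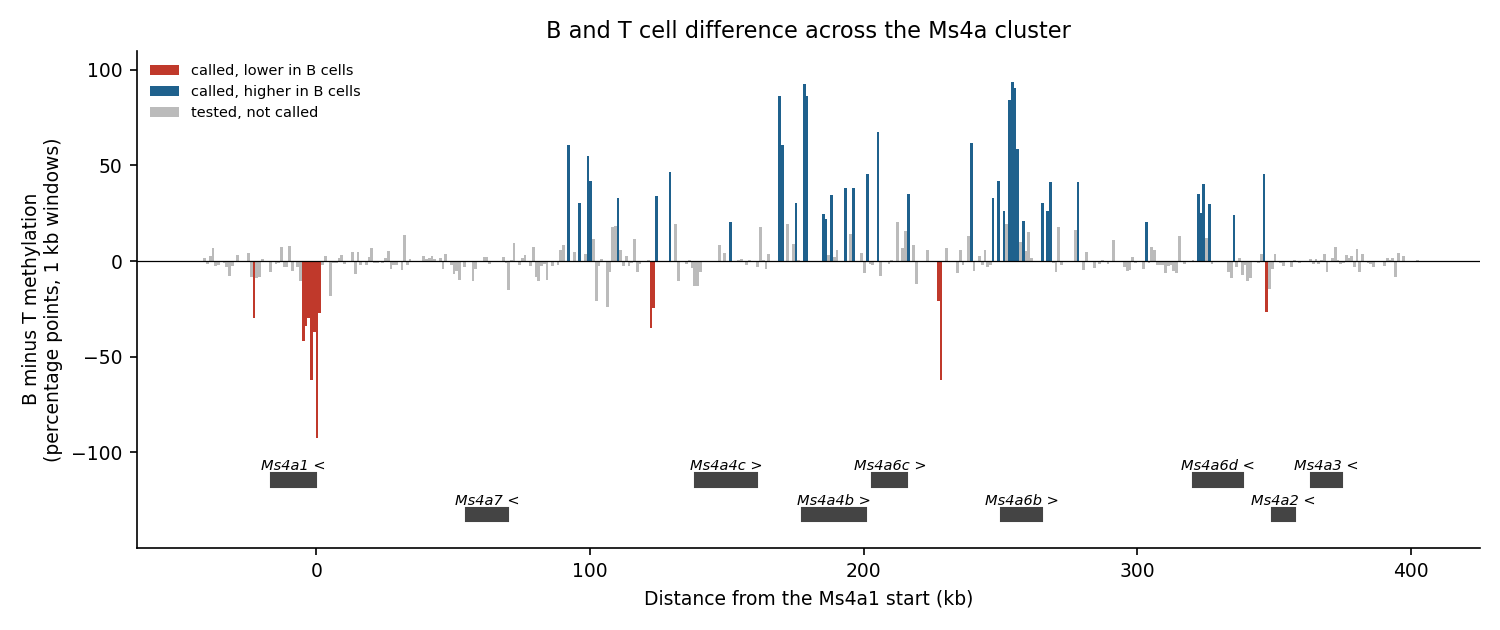
Difference in methylation between B and T cells (mean of both sexes, percentage points) in each 1 kb window against distance in kb from the Ms4a1 start, with windows called in red (lower in B cells) and blue (higher in B cells) and the 9 genes as bars, where > and < give the direction of transcription. The largest loss in B cells, 92.5 points, lies at the Ms4a1 start, and the called windows over Ms4a4b and Ms4a6b all lie above 0.

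The cluster divided into stretches of opposite direction. Of 206 windows of 1 kb tested in the 9 regions, 41 (19.9%) were called, against 2.08% of 2018320 windows tested across the autosomes and X. In 9 windows (4.37%) B cells were lower, against 0.913% of all windows, and 8 of these 9 lay in the Ms4a1 region. In 32 windows (15.5%) B cells were higher, against 1.16% of all windows, and none of these lay in the Ms4a1 region. Of the 27 windows of Ms4a4b 12 were called and 11 of the 27 of Ms4a6b, each of them higher in B cells. Ms4a6c had 5 of 20 and Ms4a4c 4 of 26 windows called, again all higher in B cells. Ms4a6d had 6 of 30 higher and 1 lower, and Ms4a2 had 1 of 24 higher and 1 lower. The 28 windows of Ms4a7 and the 27 of Ms4a3 held no call. The regions overlap, and 35 windows belong to more than 1 of them, with calls counted in each. Most Ms4a6c calls and some Ms4a4c calls are thus also Ms4a4b calls. Both Ms4a2 calls are also Ms4a6d calls. Window p-values rest on the same dispersion (1.31) for every window and overstate the certainty of any single one. Disagreement between the files at a window does not enter the dispersion behind its p-value. The count of called windows was 8 when the dispersion prior came from all windows, and 26 with limma. The share of all windows called in these settings was not computed, so whether the excess holds there was not tested.

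At the promoters the members took 3 forms. Ms4a1 was low in B cells and high in T cells, Ms4a4b and Ms4a6b were the other way round, and the other 6 promoters were not called. The median difference of the 9 was -4.43 points, beside 0.147 points over all promoters tested. Only the Ms4a1 call held when any of the 4 files was left out. The calls of Ms4a4b and Ms4a6b were lost each time, with adjusted p from 0.0755 to 0.136 and from 0.0957 to 0.145, while their differences stayed at 60.1 to 61.1 and 42.7 to 48.4 points. The fit to 3 files has no sex term.

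**Figure D2:**
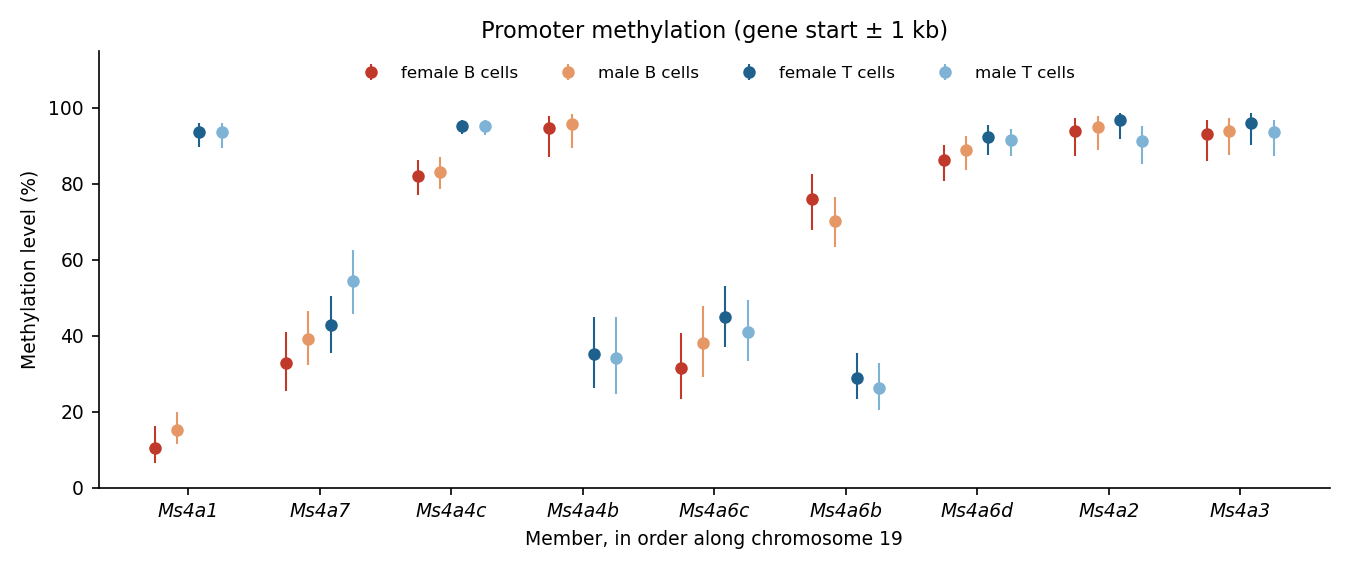
Promoter methylation level (%) of the 9 members in each of the 4 files, in order along the chromosome. Points are single files and bars are Wilson 95% intervals of counting error. B cells lie below T cells by 80.6 points at Ms4a1 and above them by 60.6 points at Ms4a4b and 45.5 points at Ms4a6b.

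Ms4a1 (ENSMUSG00000024673.9, GRCm38 chr19:11249675-11266241, minus strand) had the most negative promoter difference of all promoters tested. Its promoter level over 12 CpGs was 10.5% in female B cells (Wilson 95% interval 6.66 to 16.2, 162 reads) and 15.3% in male B cells (11.6 to 20, 281 reads). It was 93.6% in female T cells (89.7 to 96.1) and 93.5% in male T cells (89.5 to 96.0). The difference was -80.6 points (adjusted p = 7.92e-06), -83.1 in females and -78.2 in males, with no overlap of the groups. Intervals cover counting error only. Reads are summed over CpGs, so a read that spans several counts once at each. The intervals and the limits given here treat these counts as independent and can be too narrow.

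Single CpGs gave the position of this loss. Between 434 bp upstream and 90 bp downstream of the Ms4a1 start lie 8 measured CpGs. In female B cells 1 of 133 reads over these was methylated, and in male B cells 0 of 216, which allows a level of up to 1.39% when 3 reads are taken as the limit of a count of 0, as in every such limit given here. In T cells the same CpGs stood at 93.4% (female, 182 reads) and 92.4% (male, 171 reads), and no single CpG was under 83.9%. The 1 measured CpG of the promoter further upstream was also lower in B cells, at 0% and 33.3% (8 and 12 reads), with T cells at 94.4% and 91.7%. From 666 to 794 bp inside the gene, 3 CpGs were at 76.2% and 73.6% in female and male B cells. The 1 kb window over the start differed by -92.5 points.

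The low stretch ran on into the first part of the Ms4a1 gene. A run of 7 adjacent windows, chr19:11261001-11268000, were called lower in B cells and held 40 CpGs. B cells stood at 29.1% (female) and 23.7% (male) and T cells at 86.3% and 86.0%. The stretch was uneven, since the window centred 740 bp inside the gene was at 48.5% and 55.6% in B cells while that at 1740 bp was at 38.3% and 19.7%. In the window centred 2740 bp inside, T cells were themselves only partly methylated, at 37.9% in females and 50.8% in males, with B cells at 12.7% and 16.2%. A separate window past the end of the gene, chr19:11243001-11244000, was also called (68.9% and 61.5% in B cells, 94.2% and 95.3% in T cells). The intronic window at 1740 bp had the smallest unadjusted p for a sex difference of all 206 windows, 0.00159, with females higher by 10.6 points, which did not pass the adjustment (adjusted p = 0.661).

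**Figure D3:**
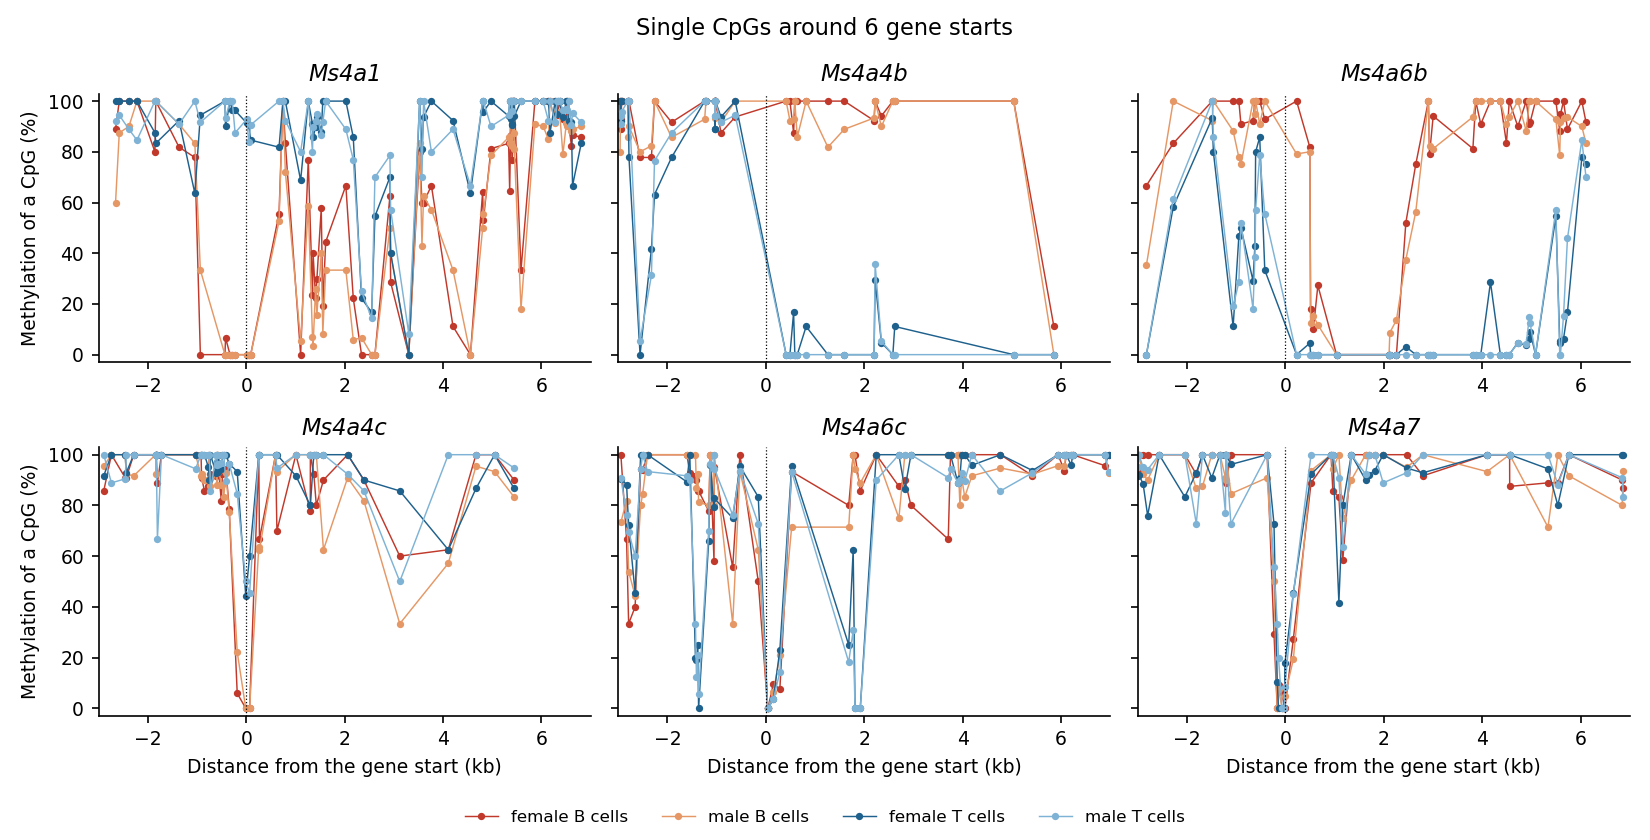
Methylation level (%) of every measured CpG from 3 kb before to 7 kb after the start of 6 members, against distance from the start in kb along the direction of transcription, 1 line per file. Ms4a1 is near 0 in B cells around its start, Ms4a4b and Ms4a6b are near 0 in T cells inside the gene, and Ms4a6c and Ms4a7 have a narrow dip in all 4 files.

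Ms4a4b (ENSMUSG00000056290.16, chr19:11443553-11467055, plus strand) encodes a surface protein of naive T cells. The promoter table of RefSeq for GRCm38 held 7 of the 9 members, with 250 bases before and 50 after the start. Of those 7 promoters 4 hold no CpG at all (Ms4a4b, Ms4a4c, Ms4a6b and Ms4a3), against 5.43% of the 32851 promoters in that table. For Ms4a4c and Ms4a6b the RefSeq start lies 2891 and 2047 bp further in than the GENCODE start used for promoter levels. The Ms4a4b and Ms4a4c promoters of RefSeq, chr19:11443308-11443607 and chr19:11407411-11407710 on the plus strand, are shown because they are close copies (74.4% identical over 301 aligned positions). Neither holds a CpG to be methylated, so that the methylation differences of these genes lie outside the printed bases. Capitals, used here for CG, are absent from both.
Ms4a4b promoter: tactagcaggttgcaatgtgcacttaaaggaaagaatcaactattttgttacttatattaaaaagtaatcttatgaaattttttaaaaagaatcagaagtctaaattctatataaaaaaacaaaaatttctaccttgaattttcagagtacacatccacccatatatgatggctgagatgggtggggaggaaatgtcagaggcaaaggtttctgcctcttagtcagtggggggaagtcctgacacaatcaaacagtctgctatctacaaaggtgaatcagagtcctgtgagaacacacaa
Ms4a4c promoter: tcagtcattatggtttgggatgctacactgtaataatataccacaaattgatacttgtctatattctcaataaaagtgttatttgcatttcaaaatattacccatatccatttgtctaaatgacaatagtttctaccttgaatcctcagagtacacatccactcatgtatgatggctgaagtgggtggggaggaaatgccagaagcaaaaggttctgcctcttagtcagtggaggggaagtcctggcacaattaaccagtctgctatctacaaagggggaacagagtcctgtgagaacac

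Within 1 kb of its start Ms4a4b had 8 measured CpGs, with a level of 94.7% in female and 95.7% in male B cells and of 35.1% and 34.1% in T cells. The difference was 60.6 points (adjusted p = 0.000735). This average joins unlike parts. Upstream, 2 CpGs between 911 and 622 bp before the start were at 90.6% to 96.9% in all 4 files. Downstream, 6 CpGs between 413 and 820 bp inside the gene were at 97.7% and 95.5% in B cells, at 4.62% in female T cells and at 0 of 52 reads in male T cells, which allows up to 5.77%.

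The pair of windows chr19:11444001-11446000 inside the gene was at 97.0% and 92.6% in B cells and 6.43% and 5.04% in T cells. A second block lay 7 to 8 kb upstream, between Ms4a4c and Ms4a4b. Whether it holds repeat sequence was not examined. In the window chr19:11435001-11436000 B cells were at 87.5% (female) and 84.9% (male), and both T cell files were at 0%. The 3 CpGs of the following 240 bases, chr19:11435453-11435692 on the plus strand, were at 72.7% to 100% in both B cell files and at 0% in both T cell files, on 10 to 24 reads each.
Upstream of Ms4a4b: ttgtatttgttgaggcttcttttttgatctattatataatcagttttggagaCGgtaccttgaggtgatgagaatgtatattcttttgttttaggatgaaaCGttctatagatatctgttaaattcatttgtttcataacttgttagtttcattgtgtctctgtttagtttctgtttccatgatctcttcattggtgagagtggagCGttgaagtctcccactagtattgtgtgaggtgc
Of the other 9 windows called in the Ms4a4b region, 7 were intermediate in T cells, at 41.4% to 77.4%, and at 75.0% to 98.7% in B cells, with differences of 21.9 to 45.4 points. The last 2 differed by 60.6 points (chr19:11436001-11437000) and by 67.7 points, the second of them lying in Ms4a6c. Ms4a4b was the only member whose whole region was called, with 89.2% and 90.1% in B cells and 69.0% and 69.5% in T cells (20.4 points, adjusted p = 0.0436). Of all gene regions tested 0.0925% were called, and 0.532% passed the test at any size, which was again Ms4a4b alone among the members. That call was lost without the female T cell file (adjusted p = 0.121), the male T cell file (0.123) or the male B cell file, where the difference was 19.9 points.

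Ms4a6b (ENSMUSG00000024677.13, chr19:11516512-11531256, plus strand) encodes another surface protein found in T cells. Its promoter level was 76.0% (female) and 70.3% (male) for B cells and 29.0% and 26.2% for T cells, a difference of 45.5 points (adjusted p = 0.000840). RefSeq places the start 2047 bp further in. Around that start, a window chosen after the data were seen, the level was 58.3% and 41.7% in B cells and 0.599% and 0% in T cells (49.7 points, adjusted p = 3.59e-05). Between 513 and 661 bp inside the annotated start, 3 CpGs were low in both cell types, at 18.8% and 13.0% in B cells and 0 of 68 and 0 of 49 reads in T cells, which allows up to 4.41% and 6.12%. The 2 CpGs just before these, 228 and 498 bp inside, stood at 90.0% and 79.5% in B cells and at 3.33% and 0% in T cells.

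The longest block of the cluster that was higher in B cells covered 4 adjacent windows of Ms4a6b, chr19:11519001-11523000, over introns and coding exons. Its 23 CpGs stood at 92.9% and 91.3% in B cells and 13.2% and 12.1% in T cells. The window chr19:11520001-11521000 gave the largest positive difference of all 206, 93.8 points, with 93.2% and 98.3% in B cells and 3.92% and 0%. An intronic stretch of this block, chr19:11519340-11519579 on the plus strand, is shown because its 3 CpGs were unmethylated in every T cell read.
Ms4a6b intron: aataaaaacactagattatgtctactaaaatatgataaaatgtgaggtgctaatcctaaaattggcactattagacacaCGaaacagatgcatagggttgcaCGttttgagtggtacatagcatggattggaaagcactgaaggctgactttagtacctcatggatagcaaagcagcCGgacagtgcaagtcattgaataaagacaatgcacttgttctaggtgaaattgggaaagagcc
In printed order they stood at 100%, 78.9% and 94.1% in female B cells and at 100%, 82.4% and 81.2% in male B cells, with 0% in both T cell files on 16 to 21 reads each. T cell methylation returned further in, since the window chr19:11522001-11523000 stood at 33.1% and 33.9% and the window chr19:11524001-11525000 at 71.4% and 72.2%. One upstream window, chr19:11513001-11514000, was called although the sexes were far apart, with 53.0 points in females and 13.4 in males. Over the whole Ms4a6b region the difference was 22.8 points, at an adjusted p of 0.0507, so the region was not called. It was called, at 21.4 and 24.2 points, when the female or the male B cell file was left out, and at 40.4 points (adjusted p = 0.0208) over the gene body with no flank. Without the female or the male T cell file the adjusted p was 0.146 and 0.158.

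Ms4a6c (ENSMUSG00000079419.4, chr19:11469366-11482192, plus strand) lies directly behind Ms4a4b, and its promoter was not called. The level was 31.4% and 38.0% in B cells and 44.9% and 41.1% in T cells (-8.30 points, adjusted p = 0.643), and the difference was -5.02 points without the female B cell file. The 4 CpGs between 38 and 286 bp inside the gene were at 4.62% to 11.1% in the 4 files. Its RefSeq promoter is 81.5% identical to that of Ms4a6b over 233 aligned positions. The 3 CpGs of Ms4a6c that align there without a gap face no CpG, and the Ms4a6b promoter holds none. The other 19 pairs of the 7 promoters shared at most 33 aligned identical bases. Both are printed, chr19:11469118-11469417 and chr19:11518309-11518608 on the plus strand, with CG in capitals.
Ms4a6c promoter: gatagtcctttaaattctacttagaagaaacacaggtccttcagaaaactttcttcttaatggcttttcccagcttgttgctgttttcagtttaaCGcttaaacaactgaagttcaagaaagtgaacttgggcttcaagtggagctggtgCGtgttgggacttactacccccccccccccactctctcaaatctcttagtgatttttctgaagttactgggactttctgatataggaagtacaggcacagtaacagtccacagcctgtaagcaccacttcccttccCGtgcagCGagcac
Ms4a6b promoter: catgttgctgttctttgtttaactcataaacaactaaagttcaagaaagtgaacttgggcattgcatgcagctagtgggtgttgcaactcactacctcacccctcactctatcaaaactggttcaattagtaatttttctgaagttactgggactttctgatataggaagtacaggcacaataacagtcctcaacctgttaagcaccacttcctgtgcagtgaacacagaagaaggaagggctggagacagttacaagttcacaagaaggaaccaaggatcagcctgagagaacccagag
Of the 4 CpGs printed for Ms4a6c 3 were measured, and the last 2, inside the gene, had 0 methylated reads in every file on 7 to 16 reads each. About 2 kb further the cell types parted. The window chr19:11471001-11472000, which holds coding sequence, was at 91.5% and 90.8% in B cells and 22.7% and 24.2% in T cells (67.7 points). A promoter widened to 2 kb on either side was called higher in B cells (21 points, adjusted p = 0.0313). Whether the Ms4a6c promoter is called thus depends on the width chosen, and at 1 kb no direction passed the test.

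Ms4a4c (ENSMUSG00000024675.19, chr19:11404770-11427246, plus strand) had differences in both directions at different places. Its promoter level was 82.0% and 83.2% in B cells and 95.3% and 95.2% in T cells. That difference, -12.7 points, passed the test (adjusted p = 0.0119) but not the size of 20 points. Without any 1 of the files it no longer passed the test (adjusted p 0.228 to 0.272), and with a minimum of 10 reads per CpG it was -6.29 points (adjusted p = 0.0513). Among all promoters 3.12% passed the test at any size. The difference was largest over 3 CpGs from 184 bp before to 68 bp after the start. Over these, B cells were at 3.57% (28 reads) and 8.70% (23 reads), and T cells were at 70.6% (34 reads) and 63.3% (30 reads). The 16 CpGs from 919 to 346 bp before the start were at 90.5% to 97.1% in all 4 files. The 4 CpGs from 254 to 623 bp inside were at 84.2% and 83.7% in B cells and at 100% and 98.8% in T cells. With 500 bp on either side the promoter was called lower in B cells, at -27.2 points (adjusted p = 0.00121). The RefSeq start lies 2891 bp further in, where 3 CpGs differed by -3.92 points (adjusted p = 0.904). In contrast, all 4 windows called in the Ms4a4c region were higher in B cells. One lay 9 kb upstream (60.5% and 70.3% in B cells, 15.2% and 22.0% in T cells) and one over coding sequence. The rest lay past the end of Ms4a4c, upstream of Ms4a4b, and belong to both regions.

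Ms4a7 (ENSMUSG00000024672.11, chr19:11321039-11336146, minus strand), known as a macrophage gene, had a narrow unmethylated start in both lymphocytes. Its promoter level was 32.8% and 39.1% in B cells and 42.8% and 54.3% in T cells (-12.5 points, adjusted p = 0.348), and the difference was -6.79 points without the male T cell file. The promoter is printed (chr19:11336097-11336396, minus strand) because 6 CpGs in 300 bases, all measured, mark the dip.
Ms4a7 promoter: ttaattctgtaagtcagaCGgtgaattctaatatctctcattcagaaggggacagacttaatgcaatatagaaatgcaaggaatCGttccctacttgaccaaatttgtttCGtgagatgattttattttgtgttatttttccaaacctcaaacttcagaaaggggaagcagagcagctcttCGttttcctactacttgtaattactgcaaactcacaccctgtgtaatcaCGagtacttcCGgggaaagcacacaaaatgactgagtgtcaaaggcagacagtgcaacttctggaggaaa
The first CpG printed was at 29.4% and 50% in B cells and 72.7% and 55.6% in T cells. The 5 that follow, 165 to 9 bp before the start, were at 2.78% and 2.38% in B cells and 6.17% and 10.2% in T cells, from 49 to 84 reads. From 522 to 965 bp inside the gene, 3 CpGs were already at 91.3% to 100% in all files.

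The promoters of Ms4a6d, Ms4a2 and Ms4a3 were highly methylated on average in both cell types. Ms4a6d (ENSMUSG00000024679.10, chr19:11586604-11604849, minus strand), a gene of macrophages, stood at 86.2% and 88.9% in B cells and 92.3% and 91.6% in T cells. The CpG nearest its start, 15 bp inside, was lower, at 33.3% and 62.5% in B cells and 72.0% and 66.7% in T cells on 15 to 25 reads. Ms4a2 (ENSMUSG00000024680.12, chr19:11615523-11623719, minus strand), the mast cell receptor chain, stood at 93.9% and 95% in B cells and 96.7% and 91.3% in T cells. Ms4a3 (ENSMUSG00000024681.11, chr19:11629496-11640851, minus strand), a gene of granulocyte and monocyte progenitors, stood at 93.2% and 94.0% in B cells and 96.1% and 93.6% in T cells. None of the 3 differences passed the test (adjusted p 0.596, 0.975 and 0.934).

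Inside Ms4a6d, far from its start, T cells were lower. A run of 3 adjacent windows near the end of the gene, chr19:11588001-11591000, stood at 79.1% and 75.5% in B cells and 46.9% and 40.2% in T cells. Between Ms4a6d and Ms4a2, neighbouring windows went opposite ways. In chr19:11612001-11613000 B cells were at 75.0% and 87.8% and T cells at 38.1% and 33.3% (45.7 points). In chr19:11613001-11614000 B cells were at 38.8% and 40.8% and T cells at 71.7% and 60.7% (-26.4 points, adjusted p = 0.0149). These windows hold 3 and 4 CpGs.

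Single CpGs gave the same division. Of 1336 CpGs, 27 (2.02%) were lower in both B cell files than in both T cell files by 50 points or more on average, against 0.422% of 18216084 autosomal CpGs. Of the 27, 23 lay in the Ms4a1 region. In the other direction 84 (6.29%) were higher in B cells, against 0.566%, and none of these lay in the Ms4a1 region. Either way the share was 111 of 1336, against 0.988%. The Ms4a4b region held 39 of these and the Ms4a6b region 32, with CpGs of overlapping regions counted in each. Over its whole region Ms4a1 stood at -15.0 points (adjusted p = 0.0508), beside a median of 0.441 points over 21624 gene regions. It passed the test, at less than 20 points, with limma (adjusted p = 0.000391), with Fisher's exact test, at 10 reads per CpG (adjusted p = 0.0122), without the flanks (adjusted p = 0.0215) and with the female or the male B cell file left out. It did not pass without the female T cell file (adjusted p = 0.181), without the male T cell file (adjusted p = 0.184) or with a dispersion prior from all features (adjusted p = 0.0520).

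No window of the 9 regions was called for sex. By the same test 10 of 206 (4.85%) had an unadjusted p under 0.05, against 4.73% of autosomal windows, and 0.00103% of those were called. limma called 0 with 16 under an unadjusted p of 0.05. Fisher's exact test, run between the sexes within each cell type, called 0 with 0. It kept the larger p-value of the pairs of files, and pairs that differed in direction did not pass. Few windows can pass that rule, so its 0 says little about sex.

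The contrast of Ms4a1 with its neighbours was tested at the promoters as a difference of log odds ratios of B against T cells. The log odds ratio (natural log) was -4.52 at Ms4a1, 3.51 at Ms4a4b and 1.95 at Ms4a6b. All 8 neighbours differed from Ms4a1 (adjusted p 2.96e-10 to 3.11e-06). So did 21073 of the 21081 other promoters (100% when rounded), so that the count says nothing particular about the neighbours. The 5 promoters with 4 file levels nearest to those of Ms4a1 included Fcrla, Igll1, Cd79a and Cd74, and the 5 lay at a mean absolute difference of 3.13 to 9.47 points.

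Other genes of the family and the partners of the encoded proteins gave a background for the 9. None of 12 further family promoters tested, of 14 listed, was called. The nearest was Ms4a4a, at 84.8% and 89.8% in B cells and 64.7% and 71.4% in T cells (19.3 points, adjusted p = 0.108). None of 14 other protein-coding genes within 300 kb was called. Of all promoters tested 0.915% were called, so that no call in sets of this size or smaller shows no contrast with the members. Among 14 partners of CD20 and other B cell surface genes, 4 were called lower in B cells. They included Cd79a (-67.6 points) and Cd79b (-31.8 points), the signalling chains of the B cell receptor, and the coreceptor Cd22 (-35.1 points). Lck, the T cell kinase, was called higher (51.5 points), and 9 were not called. None of the 4 partners of the IgE receptor beta chain was called. Of 2 receptors paired with Ms4a4b and Ms4a6b, Tnfrsf4, which encodes the costimulatory receptor OX40, was higher in B cells (35.9 points) and Tnfrsf18 was not called (10.1 points, adjusted p = 0.161). On the far side of Ms4a1 along chromosome 19, Cd5 and Cd6, scavenger receptor genes of T cells, were higher in B cells by 56.6 and 39.6 points.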

How the data were processed

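Whole-genome bisulfite data of 8 samples came as 4 files, 1 for each sex and cell type. Whether a file merges both samples of its group is not given in the sources used here. Per the labels, Trim Galore, FastQC and Bismark 0.13.1 with build mm10 (GRCm38) were used. Mapping filters and removal of duplicates are not given in the sources used here. The deposited values are a methylation fraction and a read count per CpG, with strands merged and at least 5 reads. Fraction times count came to a whole number of reads everywhere, to within 0.0011 of the fraction, and positions, which count from 0, were shifted by 1 onto the CG of the genome (100% on chromosome 19).

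Methylated reads were summed per promoter (GENCODE M21 start, 1 kb either side), 1 kb window and gene region with at least 3 CpGs covered by 5 or more reads in all 4 files. They were fitted with a quasi-binomial model of cell type and sex (1 residual degree of freedom). Dispersion was squeezed with limma 3.58.1 in R 4.3.3, its prior taken from features with at least 5 expected reads of each kind. F tests, which for windows became chi-square tests, were adjusted by Benjamini-Hochberg over all features of a kind. Alternatives were Fisher's exact test, limma on log2 ratios with a pseudocount of 1, other widths, depths and thresholds, and leaving out each file. Sequences came from RefSeq and the GRCm38 genome, and promoters were aligned with free ends (match 1, mismatch -1, gap -2). All members are named. Windows named are the called ones over starts and the largest per member and direction. Adjacent calls of one direction were joined into runs. The other windows and runs described and the groups of CpGs near starts were chosen after their values were seen. Genes of each list are named where called, and some items are not reported here. Members and lists were chosen with earlier results of these data known.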

Additional observations from a re-analysis of the deposited data

Results flagged for a closer look

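The direction differed between the sexes in the results below, all of them small. The Ms4a2 promoter differed between B and T cells by -2.87 points in females and 3.71 points in males. The Ms4a3 promoter differed by -2.90 points in females and 0.422 points in males. The whole Ms4a3 region differed by -1.50 points in females and 1.06 points in males. The difference between the sexes was not tested in any of these, each sex has 1 file per cell type, and none was called.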

How the results depend on the processing

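No pairing of samples could be used, since each group has 1 file. The replicate numbers run on over all samples and do not show whether groups share animals. Of 3 promoters called, 1 (Ms4a1) remained whichever file was left out, at -83.0 to -78.2 points. With 2 kb either side the Ms4a4b promoter differed by 37.0 points and with 500 bp the Ms4a6b promoter by 76.4, both still called, and the Ms4a4b promoter gave no value at 500 bp or at 10 reads. The count of windows called, 41 of 206, was 8 (2 lower and 6 higher in B cells) with a dispersion prior from all windows, 26 (5 and 21) with limma and 27 (4 lower) with Fisher's exact test, each again out of 206. It was 16 (4 and 12) of the 105 windows tested at 10 or more reads per CpG and 22 (4 and 18) of 138 windows of 2 kb. A threshold of 10 points gave 15 windows lower in B cells. Leaving out a file gave 32 to 36 windows, 6 to 8 lower and 26 to 28 higher. Regions called numbered 2 instead of 1 with limma, Fisher's exact test, 10 reads per CpG or no flank, and 0 to 2 without a file. At any size 1 region passed the test, 4 with limma and with Fisher's exact test, 3 with 10 reads and with no flank, and 0 to 3 without a file. CpGs apart by 50 points numbered 111, with 60 at 10 reads and 170 at 30 points. Shares over all promoters, windows, regions and CpGs were computed in the main setting only. Whether the excess over them holds in the alternatives was not tested. Directions that turned belonged to differences not called in the main analysis, and 1 of them, the Ms4a6c promoter at 2 kb, became a call. Without the female T cell file the Ms4a3 promoter was at 0.0129 points and its region at 0.994. Without the male B cell or the male T cell file the Ms4a2 promoter was at -0.166 and -2.28 (range without a file -2.28 to 3.12), and the ranges without a file were -2.49 to 0.0129 for the Ms4a3 promoter and -1.43 to 0.994 for its region. At 10 reads the Ms4a6c promoter was at 0.785 and the Ms4a3 region at 0.210. With 500 bp either side the Ms4a3 promoter was at 1.03 and Ms4a6c at 0.00438, and with 2 kb Ms4a2 was at -1.78, Ms4a3 at 0.895 and Ms4a6c at 21. Without flanks the Ms4a4c region was at -0.565. The cause of these changes was not tested. At about 12 to 15 reads per CpG, single CpG levels are coarse.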
